A study of Mus musculus with 3 samples.

Results

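The cells described here are the 1272 cells of a sagittal section through a wild-type mouse embryo at E15.5 (days after conception) that held transcripts of both Tbx20 and Gata4. They were chosen by their counts in this section: at least 10 counts over the panel, at least 1 count of each of Tbx20 and Gata4, at least 3 counts of the pair together, and fewer than 2 counts of Npr3. They made up 1272 of the 195915 kept cells of the section (0.649%, exact binomial 95% interval 0.614 to 0.686%) and of the 203079 kept cells of all 3 sections. Tbx20 is a T-box transcription factor and Gata4 a zinc-finger transcription factor, and both are needed to build the heart. Npr3, the clearance receptor for natriuretic peptides, marks the endocardium, the endothelial lining of the heart chambers, and the limit on it leaves out cells with 2 or more of its counts. The cells were labelled heart cells, and the data bore this out for part of them only. Of these cells, 848 lay in 1 compact area in which Gja5 and Casz1 were above the section level. Casz1 was higher still in Stmn2-rich cells with Tbx20 alone, most of them elsewhere. Another 271 lay far from the compact area and had other leading genes. Among these were Gata5 and Hand2, heart factors that were also high in other cells outside that area.

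Tbx20 and Gata4 act together in heart muscle, where they switch on genes of contraction and of impulse conduction. Neither is limited to the heart, since Tbx20 is also made by cranial motor neurons and Gata4 by mesoderm of the gut, liver and gonad. Casz1 is a zinc-finger transcription factor of developing heart muscle. Gja5 encodes connexin 40, a gap junction protein of atrial muscle, of the fast conduction tissue and trabeculae of the ventricles, and of arterial endothelium.

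The study imaged RNA molecules in place by MERFISH on the Vizgen MERSCOPE platform, in whole wild-type mouse embryos: 2 sagittal sections at E9.5, each from another embryo, and 1 at E15.5. The labels name no treatment and no other genotype. The 296 barcoded genes of the panel include none of the 19 heart muscle structural genes listed for the check of the label, none of 7 epicardial genes and none of 7 skeletal muscle genes. Heart muscle was therefore judged here mainly by transcription factors and Gja5. Pdlim3, a gene of the muscle Z-disc, was in the panel but not on the list. The 3 sections shared no cell identifier. The E15.5 section held 219525 segmented cells and 21309070 panel counts. With 1 section at E15.5 there was no replicate and no test: each fold below is a ratio of summed counts per 10000 panel counts (without Tbx20, Gata4 and Npr3), its exact 95% interval covers counting error only, and genes are called higher or lower by size, at least 2-fold with an interval that leaves out 1.

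Members held a median of 107 counts per cell against 83 in the other 194643 kept cells, in a median segmented volume of 898 against 638 cubic micrometres. Tbx20 counts in the members ran from 1 through a median of 3 to 28, and Gata4 counts from 1 through 2 to 14. Npr3 was at 0 in 1090 members and at 1 in 182. These values selected the cells and are given as a description. Near the threshold, the 354 members whose pair summed to exactly 3 lay to 63.6% inside the compact area and held 104 Gja5 counts per 10000, and the 462 cells just outside the rule, with 1 count of each, lay to 41.3% inside it and held 55.0.

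The members were concentrated in 1 place. Linking members no more than 50 micrometres apart, with at least 10 in reach, put 848 of 1272 (66.7%) into 1 aggregate and 12 into another. The outline drawn around the large aggregate measured 1189 by 772 micrometres and enclosed 3033 kept cells, of which 933 (30.8%) were members. Another 153 members (12.03%) lay outside the aggregate within 200 micrometres of it, and 271 (21.3%) lay farther away. Inside the outline the members formed an arc along its upper, left and lower sides that was open to the right, with few members in the middle. The share in the largest aggregate depended on how cells were linked: it was 16.4% with a link of 30 micrometres and 78.1% with 100, and it was 33.9% for cells with Npr3 at 0 and 38.8% for cells whose pair summed to at least 5. The same minimum of 10 in reach was applied to these smaller sets. The 489 members with a pair sum of 6 or more lay to 80.8% inside the outline drawn above.

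**Figure D1:**
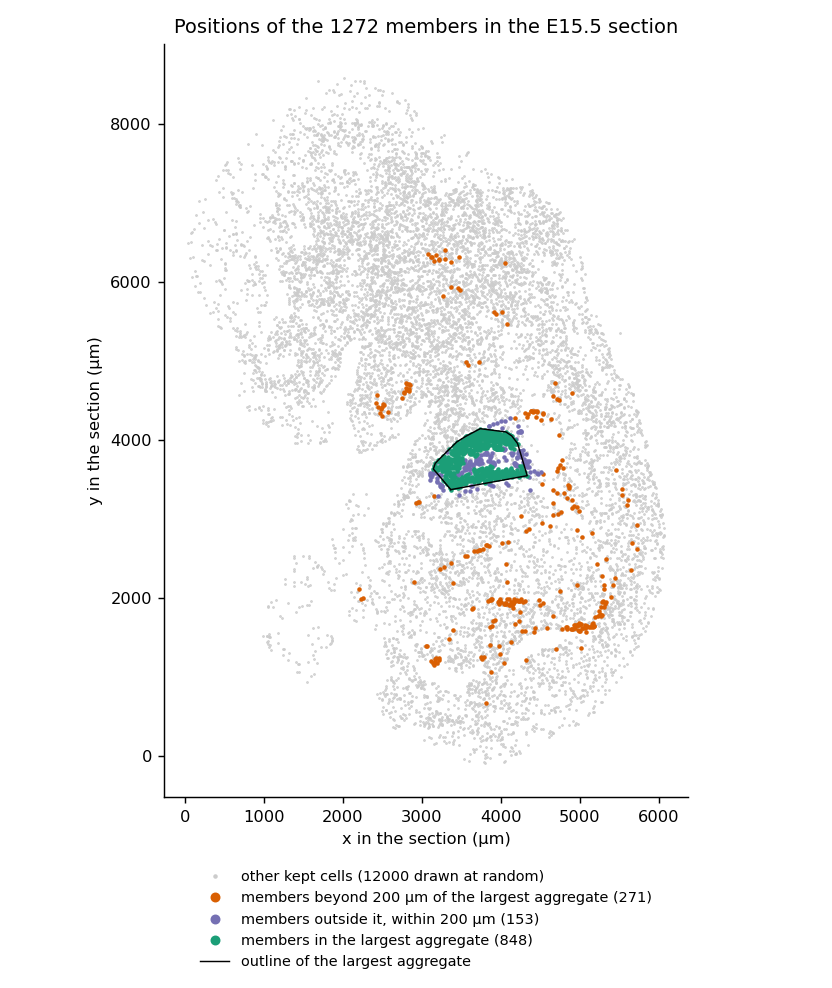
Positions in the E15.5 section, with x and y in micrometres as deposited (anatomical orientation not given); each dot is a cell, coloured by its zone, over a random draw of the other kept cells in grey. The 848 members of the largest aggregate fill 1 compact area, and the 271 beyond 200 micrometres are scattered over the section, some in short rows.

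Gja5 was the gene that set the members apart most by size. The other kept cells held 12.2 Gja5 counts per 10000 and the members 117, which is 9.59-fold (95% interval 9.14 to 10.1). Per cell, members held between 0 and 18 Gja5 counts with a median of 1, and 53.3% held any. When every cell was thinned to 30 counts, 30.4% of members held Gja5 against 2.57% of other kept cells, 4.76% of the 26581 nearby cells (non-members within 100 micrometres of a member) and 0.331% of neural-marked cells, which should lack it; median depths were 107 counts in members and 163 in neural-marked cells. Against nearby cells the fold was 6.69 (6.34 to 7.06). The members of the aggregate held 170.1 counts per 10000 and the far members 9.28, so the high level was a property of the aggregate and not of every cell the rule picked.

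Inside the outline, however, Gja5 per panel count did not separate members from their neighbours. Its level was 170.1 per 10000 in the aggregate members and 176 in the 2100 non-members inside the same outline, a fold of 0.965 (0.903 to 1.03). Thinned to 30 counts, 37.0% and 37.4% of these cells held Gja5. Unthinned, the shares were 65.2% and 49.2%, and the fold was not taken per cell volume. The 673 cells inside the outline with neither Tbx20 nor Gata4 held 156 Gja5 counts per 10000, the 604 cells with a pair sum of 3 to 4 held 203, and the 226 with 8 or more held 154. The cells without either transcript were shallower, with a median of 29 counts against 144 in those with 8 or more, and smaller, with a median volume of 505 against 1050 cubic micrometres. Whether cell outlines split or shared transcripts between neighbours was not tested; the median distance from a member's centre to the next cell's centre was 8.32 micrometres.

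Of the other heart transcription factors in the panel, Casz1, Hand2 and Gata5 were all at least 2-fold higher in members than in other kept cells. Casz1 stood at 40.2 against 10.4 counts per 10000, or 3.88-fold (3.58 to 4.20), and at 53.6 in the aggregate. It was 2.37-fold higher than in nearby cells and 1.29-fold (1.14 to 1.47) higher in aggregate members than in non-members inside the outline, where it ran from 40.3 per 10000 in cells with 1 count of the rule genes to 55.2 in cells with a pair sum of 8 or more. Hand2, a helix-loop-helix factor of the heart ventricles that sympathetic neurons also make, stood at 80.8 against 20.1 (4.03-fold, 3.80 to 4.26), but the nearby cells held 77.4, and the fold against them was 1.05. Gata5, a relative of Gata4 made in endocardium and gut mesoderm, was 3.29-fold higher in all members (2.84 to 3.78), and 127 of its 200 counts were in the far members: aggregate members held 6.38 counts per 10000 and far members 24.1.

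Over all genes, 22 of the 283 with enough expected counts (7.77%) were at least 2-fold higher in members than in other kept cells, and 48 (17%) were at least 2-fold lower; the median fold was 0.93. Against nearby cells the counts were 11 higher (3.89%) and 38 lower (13.4%). Of the 22 higher genes, 10 were also higher against nearby cells (45.5% of 22 and 90.9% of 11). With counts taken per cell volume, 14 genes were higher and 68 lower than in other kept cells, and with the mean blank code subtracted 33 were higher and 70 lower.

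Among the highest genes were 3 that handle fatty acids, picked from the ranking and not from a list. Fabp4, an intracellular fatty acid carrier, stood at 8.75 against 1.95 counts per 10000 (4.50-fold, 3.77 to 5.33). Cd36, the fatty acid translocase, stood at 18.3 against 4.50 (4.08-fold, 3.61 to 4.58), and Lpl, lipoprotein lipase, at 25.0 against 7.24 (3.46-fold, 3.12 to 3.82). All 3 were also higher than in nearby cells, by 2.77-fold, 3.46-fold and 2.89-fold, and all 3 were low in the far members, at 1.89, 2.27 and 3.98 counts per 10000. Inside the outline, cells with neither Tbx20 nor Gata4 held 27.3 Cd36 and 33.5 Lpl counts per 10000. Cells with a pair sum of 8 or more held 26.3 and 36.8, so high Cd36 and Lpl levels there were not particular to the members. Fabp5 (3.30 against 3.51 counts per 10000) and Gpihbp1 (1.71 against 1.87), which also handle lipids, were not called.

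Acta2, the smooth muscle actin that immature heart muscle also makes, was 3.43-fold higher (3.24 to 3.63), at 79.1 against 23.0 counts per 10000. Myh11, the myosin of mature smooth muscle, was not: it stood at 20.4 against 19.5 over all members and at 1.54 in the aggregate. Prox1, a homeobox factor of lymphatic vessels that heart muscle also uses, stood at 37.0 against 11.3 (3.27-fold, 3.01 to 3.55), while Lyve1, another lymphatic gene, was not among the higher genes. Unc5b, a netrin receptor, was 3.22-fold higher, Tmem108, a transmembrane protein, 3.31-fold, Arhgap18, a GTPase-activating protein, 2.88-fold, and Gpr182, a receptor of endothelium, 2.93-fold.

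The lists of marker genes are given by count, to be set against 7.77% higher and 17% lower over all genes. Of 10 arterial genes counted, 3 were higher (Gja5, Unc5b and the chemokine Cxcl12), none was lower and the median fold was 1.26; against nearby cells only Gja5 of the 10 was higher. Of 5 venous genes 3 were lower (Nr2f2, Aplnr and Nrp2), with a median fold of 0.483. Of 9 mural genes Acta2 was higher and Vtn and Rgs5, a pericyte gene, were lower. All 5 neuronal genes were lower, with a median of 0.284. Of 9 proliferation genes none was called, and the median fold was 1.27. None of 6 macrophage genes and none of 5 liver sinusoidal genes was called. Of 2 erythroid genes Car2 was lower. Of 4 endocardial genes outside the rule Gata5 and Hand2 were higher and none was lower. Their median fold was 2.18, and none was called against nearby cells. Of 6 endothelial genes Cldn5 was lower and none higher. Of 5 lymphatic genes Prox1 was higher and Reln lower. Lower, with none higher, were 2 of 4 visceral mesoderm, 2 of 3 glial and 1 of 4 mesenchyme genes, and Wnt4 of the gonad list. The 5 imprinted genes and epithelial Spint2 were not called.

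**Figure D2:**
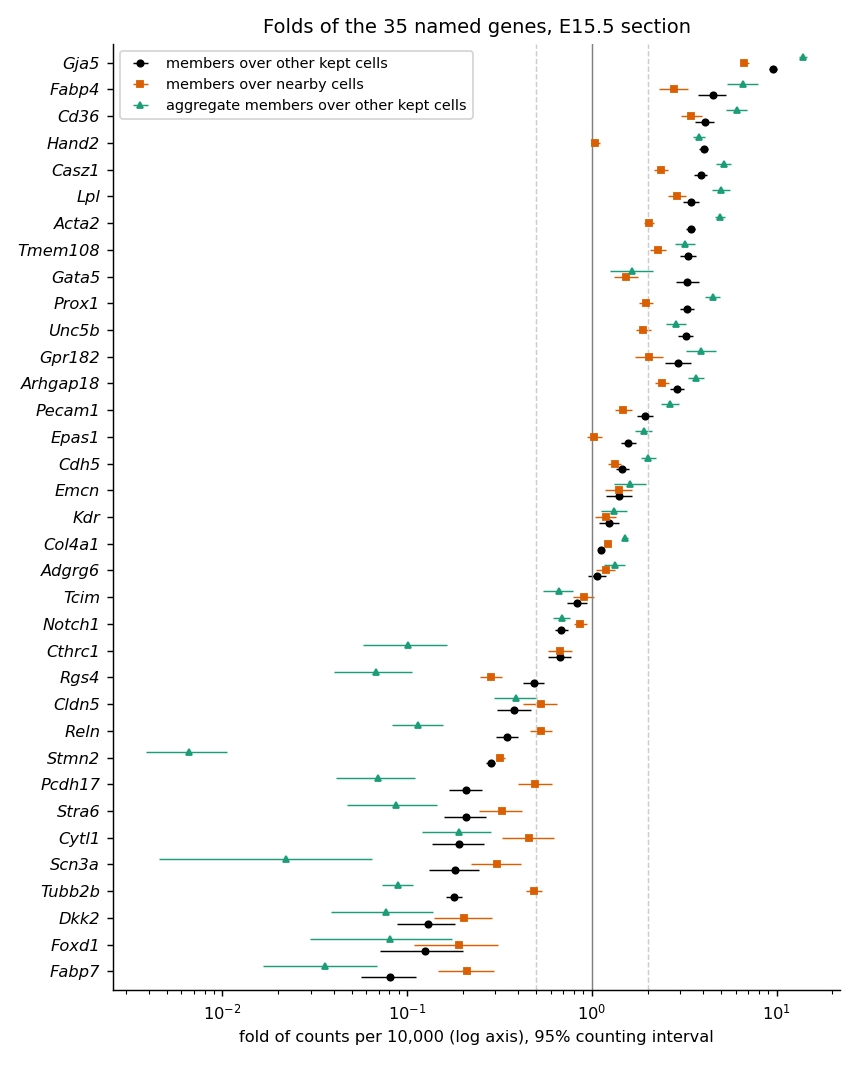
Folds of the 35 named genes on a log axis, with 95% counting intervals, for all members over other kept cells (circles), members over nearby cells (squares) and aggregate members over other kept cells (triangles); dashed lines mark 2-fold and 0.5-fold. Gja5 is highest in all 3 comparisons, Hand2 sits near 1 against nearby cells, and Stmn2 is far lower in the aggregate than in all members.

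The lowest fold belonged to Fabp7, the fatty acid carrier of radial glia, which stood at 2.22 against 27.5 counts per 10000 (0.0807-fold, 0.0562 to 0.112). Foxd1, a forkhead factor of stroma, was at 0.124-fold, Dkk2, a Wnt pathway regulator, at 0.129-fold, the neuronal tubulin gene Tubb2b at 0.180-fold, the sodium channel gene Scn3a at 0.182-fold, Cytl1 at 0.191-fold, the retinol receptor Stra6 at 0.207-fold and the protocadherin Pcdh17 at 0.208-fold. In members a blank code held 29.2 counts on average and 79 at most. Foxd1 (16 counts), Dkk2 (32), Fabp7 (35), Cytl1 (40), Scn3a (43) and Stra6 (58) were under that highest code. Their levels were thus near background, and their order and exact folds carry little weight. Pcdh17 (93 counts) and Tubb2b (397) were above it. The aggregate was lower still for the neuronal genes. Stmn2, a microtubule regulator of neurons, stood at 80.3 per 10000 in all members and at 1.87 in the aggregate, with the difference made by the far members at 236.

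The 5 endothelial genes asked about were Pecam1, Cdh5, Kdr, Emcn and Cldn5: adhesion molecules, the main VEGF receptor, a sialomucin and a tight junction protein. Their summed level was 92.9 counts per 10000 in members against 73.3 in other kept cells, 1.27-fold (1.20 to 1.34), and 1.22-fold (1.16 to 1.29) against nearby cells. The excess rested on the scale: per cell volume the folds were 1.05 and 0.986. As a scale, the 11558 endothelial-marked cells (non-members chosen for at least 3 counts over at least 2 of these same genes, which fixes a high level) stood at 454. Neural-marked cells, which should lack these genes, stood at 32.7, so members were 2.84-fold above them.

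The genes did not move together. Pecam1 was 1.94-fold above other kept cells (1.75 to 2.15), Cdh5 1.46-fold (1.35 to 1.59), Emcn 1.41-fold (1.19 to 1.65) and Kdr 1.23-fold (1.09 to 1.40). Cldn5, which is strong in brain vessels, stood at 5.90 counts per 10000 (0.380-fold, 0.306 to 0.465) and was lower than in neural-marked cells (0.557-fold). None of the 5 reached 2-fold higher over all members. In the aggregate Pecam1 was 2.65-fold and Cdh5 2.02-fold above other kept cells, and the summed level was 118, or 1.62-fold (1.52 to 1.72). The far members stood at 45.7, or 0.623-fold (0.547 to 0.707).

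Against the other cells of the same area the order turned round when taken per panel count. The 2100 non-members inside the outline held 178 summed endothelial counts per 10000, and the aggregate members 0.665 times that (0.618 to 0.716). These non-members were sparser, at 8.54 panel counts per 100 cubic micrometres against 12.2 in the aggregate members. This fold was not taken per cell volume. The limit on Npr3 was set on members only, so cells with 2 or more of its counts stayed among the non-members. Npr3 averaged 0.293 counts per cell in these non-members and 0.154 in aggregate members. How much of the lower endothelial level came from that limit was not tested. Pecam1 was at 0.548-fold, Kdr at 0.626-fold, Emcn at 0.674-fold and Cdh5 at 0.731-fold, whereas Cldn5, with 55 and 48 counts, was at 1.52-fold (1.01 to 2.29). The highest blank code held 48 counts in aggregate members and 83 in these non-members. Cldn5 was therefore near background here, and its direction is not read. By pair sum, the summed endothelial level inside the outline was 228 in cells with neither Tbx20 nor Gata4, 165 at a sum of 2, 138 at 3 to 4 and 103 at 8 or more.

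At equal depth the shares gave the same order. Thinned to 30 counts, 24.2% of members held at least 1 count of the 5 genes, against 14.4% of other kept cells, 16.0% of nearby cells, 36.4% of non-members inside the outline, 73.0% of endothelial-marked cells, which were chosen on these genes, and 7.69% of neural-marked cells. The share was 28.0% in the aggregate. In the far members each of the 5 genes alone was held by between 1.82% and 3.57% of cells, against 1.82% to 13.4% in the aggregate. Thinning left out 32 members and 32419 other kept cells with too few counts. Unthinned, their shares were 55.1% (52.3 to 57.9%) and 29.4%. It also left out 621 of the 2100 non-members inside the outline and 18 of the 848 aggregate members. Unthinned, the shares of these were 46.8% and 59.8%, the opposite order, at median depths of 47 and 102 counts. Cell by cell and unthinned, 571 members held no count of the 5 genes. At least 2 counts were held by 343 (27.0%), against 11.6% of other kept cells, and at least 3 over at least 2 genes by 153 (12.03%, 10.3 to 13.9%), against 5.94%. For 4 or 5 of the genes the shares were 23 members (1.81%) against 1.83% of other kept cells.

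**Figure D3:**
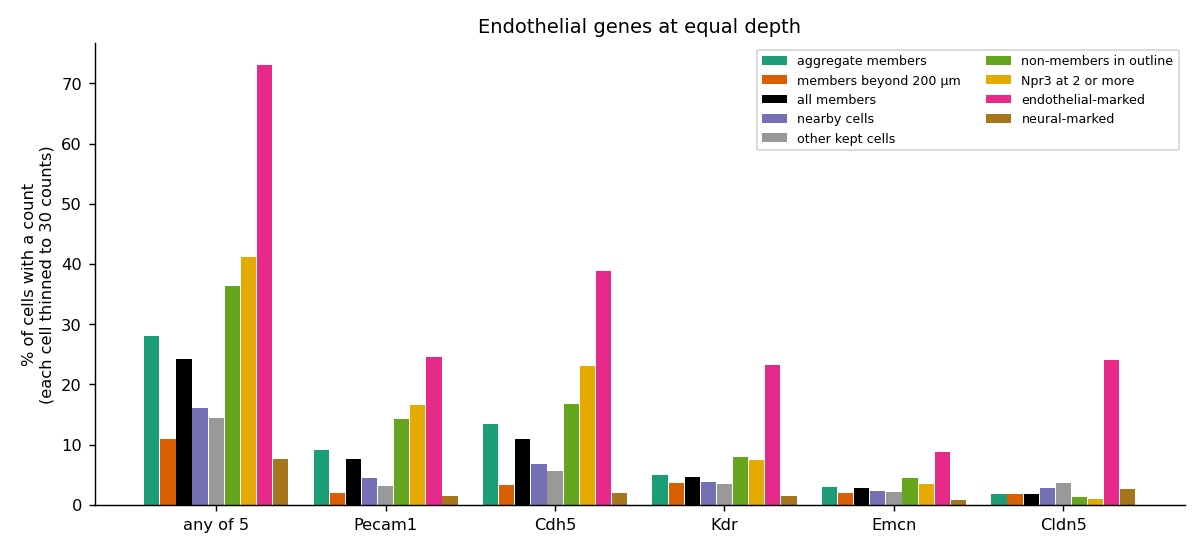
Percent of cells with at least 1 count of any of the 5 endothelial genes and of each gene, after thinning each cell to 30 counts, for 9 groups of cells in the E15.5 section. For any of the 5 genes, members (24.2%) stand above other kept cells (14.4%) and below non-members inside the outline (36.4%), while for Cldn5 members stand below other kept cells.

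The 343 members with at least 2 such counts were set against the 571 members with none, leaving the 5 genes out: 4 of 212 genes (1.89%) were at least 2-fold higher and 12 (5.66%) lower. The higher ones were Col15a1, a basement membrane collagen (2.85-fold, 1.83 to 4.55), Notch4, an endothelial Notch receptor (2.72-fold, 1.45 to 5.34), Gpr182 (2.35-fold, 1.58 to 3.56) and Adgrg6, an adhesion receptor made in the endocardium (2.09-fold, 1.60 to 2.75). The lower ones included Rgs4 (0.243-fold), Stmn2 (0.292-fold), Reln (0.325-fold) and Cthrc1 (0.327-fold), genes that were higher in the far members than in the aggregate. The vessel genes Esm1, Gja4 and Acvrl1 were not called. Both sides were unequal in depth, with medians of 135 and 92 counts, and in place, since 76.4% and 59.7% lay in the aggregate. Within the aggregate alone, Notch1, a Notch receptor, was 3.10-fold higher (2.30 to 4.24), Gpr182 2.05-fold and Adgrg6 2.02-fold, while Col15a1 was at 1.88-fold and was not called and Notch4, at 1.74-fold, had too few expected counts. Members with endothelial counts had their nearest endothelial-marked cell at a median of 20.3 micrometres and members without at 28.9; the part of neighbouring cells in these counts was not tested.

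The 271 far members went against the heart label by Gja5, at 0.761-fold of other kept cells (0.563 to 1.01), and Casz1 was not called (1.34-fold, 1.05 to 1.68). The heart factors Gata5 (6.24-fold, 5.20 to 7.44) and Hand2 (4.48-fold, 4.09 to 4.91) were called higher, but neither was particular to the compact area. Gata5 stood at 24.1 counts per 10000 in far members and at 6.38 in the aggregate. It stood at 26.7 in cells with at least 3 Gata4 counts and no Tbx20, 3.97% of them inside the outline. Hand2 stood at 181 in cells with at least 3 Tbx20 counts and no Gata4, 13.9% of them inside it. Set against the far members, the aggregate members were at least 2-fold higher for 27 of 217 genes (12.4%) and at least 2-fold lower for 63 (29%). Higher in the aggregate were Gja5 (18.3-fold, 13.8 to 24.9), Cd36 (27.3 against 2.27 counts per 10000, interval of the fold 6.75 to 23.5), Lpl (9.07-fold), Fabp4 (6.74-fold), Acta2 (4.36-fold), Prox1 (3.97-fold) and Casz1 (3.87-fold). Higher in the far members were Stmn2, at 236 against 1.87 counts per 10000, Myh11, at 57.0 against 1.54, the imprinted growth regulator Dlk1, at 322 against 8.69, and Foxf1, a forkhead factor of gut and lung mesoderm, at 26.5 against 2.20. The fibrillar collagen genes Col5a2, at 252 against 22.8, and Col1a2, at 199.7 against 19.7, were also higher in the far members, whereas Col4a1, of basement membranes, was higher in the aggregate, at 284 against 85.5. The far members were deeper, with a median of 184 counts against 102. In the aggregate, Stmn2 and Myh11 were near the mean blank code of 14.6 counts.

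The far members were themselves mixed. Linked at 100 micrometres, they fell into 4 small places of 36, 34, 14 and 11 cells, and 176 were not linked. The 176 unlinked cells led with Gata5 (5.89-fold over other kept cells, 4.67 to 7.33), Hand2 (4.78-fold) and Stab2, a scavenger receptor of liver sinusoids (4.77-fold, 37 counts). The place of 34 cells led with Myh11 (6.98-fold, 5.62 to 8.56) and the macrophage mannose receptor Mrc1 (6.03-fold), the place of 36 with the matrix gene Fbln2 (6.72-fold, 5.89 to 7.63), and the place of 11 with Col5a2 (20.7-fold, 17.9 to 23.8). Liver-marked cells (at least 3 counts of Stab2, Clec4g and Oit3) were within 100 micrometres of 38.7% of far members and of 1.30% of aggregate members. No name is given to these cells.

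Without the far members and the others outside it, the aggregate kept 17 of the 22 higher genes and 46 of the 48 lower genes. The 5 it lost included Gata5 (1.65-fold) and Fabp4, which was at 6.56-fold (5.40 to 7.89) but had under 20 expected counts and was not called. Pecam1 and Cdh5 joined.

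Members were not uniform inside the outline: Gja5 was graded from the outline inward. In the 125 members within 30 micrometres of the outline Gja5 stood at 60.9 counts per 10000 (48.0 to 76.2), at 90.8 between 30 and 60, at 132 between 60 and 90, at 204 between 90 and 120, at 304 between 120 and 180 and at 335 (303 to 370) in the 133 members deeper than 180. The intervals of neighbouring layers did not overlap up to 180 micrometres, and those of the deepest pair did. Casz1 went from 44.9 (33.9 to 58.3) to 72.9 (58.3 to 90.1) over the same depths, a far smaller change. Gja5-high members also lay together: among the 10 nearest aggregate members of a member with at least 2 Gja5 counts, 56.2% on average held at least 2, against 25.9% around members with none and 42.3% around all.

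**Figure D4:**
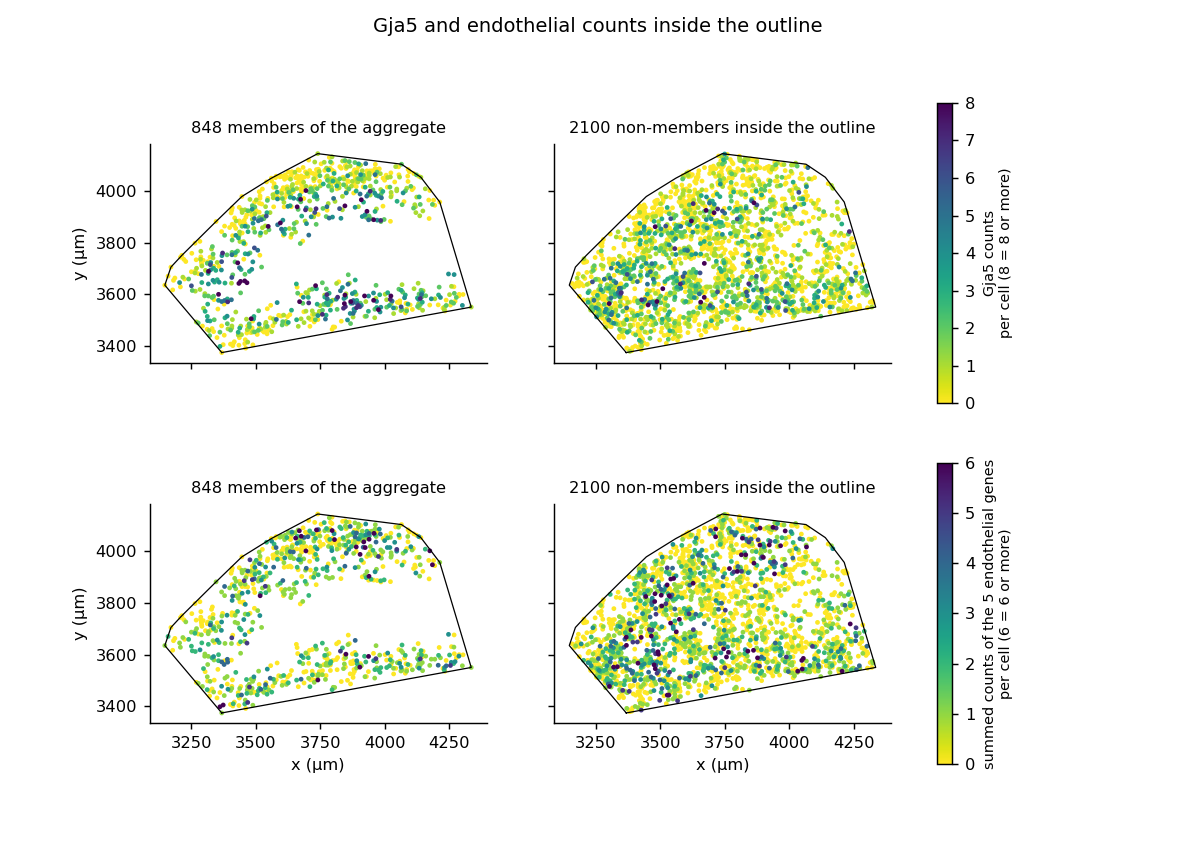
Cells inside the outline coloured by Gja5 counts (upper row) and by the summed counts of the 5 endothelial genes (lower row), for the 848 aggregate members (left) and the 2100 non-members (right), with x and y in micrometres. Members form an arc open to the right, and their highest Gja5 counts lie on its inner side. Their summed endothelial level was not resolved between interior and rim (1.12-fold, 0.967 to 1.30). In non-members it was higher in the interior (1.37-fold, 1.23 to 1.53).

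The comparison of interior and rim was defined after this gradient had been seen. The 277 interior members (deeper than 120 micrometres) held 318 Gja5 counts per 10000 and the 293 rim members (within 60 micrometres) 79.0, 4.02-fold (3.49 to 4.65). Per cell, 87.4% of interior members held Gja5, with a mean of 2.996 counts, against 42.0% and a mean of 0.850 at the rim. Median depth was 92 counts in the interior and 102 at the rim, so depth ran the other way, while median volume was 1042 against 780 cubic micrometres; per volume the fold was 2.62. The outline is convex and the arc is open on its right, so distance from it is not distance from the outer surface of the organ everywhere.

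In these members 12 of 142 genes (8.45%) were at least 2-fold higher in the interior and 20 (14.1%) lower; per cell volume the counts were 6 and 53. Next to Gja5 the higher ones included Gpr182 (5.87-fold), Adgrg6 (4.21-fold, 2.87 to 6.31), the scavenging chemokine receptor Ackr3 (3.20-fold), the growth factor binding protein Igfbp5 (2.91-fold, 2.55 to 3.33), Fam174b (2.89-fold), Notch1 (2.21-fold), Cd36 (2.19-fold), Btg2 (2.16-fold) and Prtg (2.15-fold). The summed endothelial level was 132 in the interior and 118 at the rim, 1.12-fold (0.967 to 1.30), so the 5 genes as a sum were not resolved between the zones. Singly, Pecam1 was at 1.43-fold (1.07 to 1.90) and Cldn5, on 9 and 26 counts, at 0.418-fold (0.172 to 0.920). The intervals of Cdh5, Kdr and Emcn included 1.

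Among the 20 genes lower in the interior, Dcn, the proteoglycan decorin, stood at 133 counts per 10000 at the rim and 19.9 in the interior (0.150-fold, 0.110 to 0.200). Acta2 stood at 150.0 and 35.2 (0.234-fold, 0.185 to 0.293). Col15a1, Fbln2, Col1a2, Sparcl1 and P4ha3 were lower in the interior with them, while the matrix genes Mgp, Timp3 and Nid2 were not called. Of 8 proliferation genes counted, 4 were lower in the interior and none higher, with a median fold of 0.512: H2afz (0.413-fold), Dut (0.469-fold), Cdk1 (0.490-fold) and Top2a (0.496-fold, 0.409 to 0.599). The spindle genes Hmmr (0.445-fold) and Nusap1 (0.457-fold) were also lower. Top2a stood between 110 and 132 counts per 10000 in each layer up to 120 micrometres and at 50.6 in the deepest.

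Non-members inside the outline showed the layers too, so they were not particular to the members. There 15 of 153 genes (9.8%) were higher in the interior and 21 (13.7%) lower; 9 genes were higher in both (9 of the 12 in members, 9 of the 15 in non-members), and 11 were lower in both (11 of 20 and 11 of 21). Gja5 was 2.12-fold higher in interior non-members (1.87 to 2.40), a smaller fold than in members with intervals that did not overlap; per volume it was 1.42-fold. Acta2 was at 0.201-fold and Dcn at 0.143-fold. The summed endothelial level was higher in interior non-members than at the rim, at 200 against 146 counts per 10000 (1.37-fold, 1.23 to 1.53). In the layer within 30 micrometres of the outline non-members held more Gja5 than members (106 against 60.9 counts per 10000), and deeper than 180 micrometres less (241 against 335). The share of members among cells was 42.8% between 60 and 90 micrometres and 18.0% in the deepest layer.

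**Figure D5:**
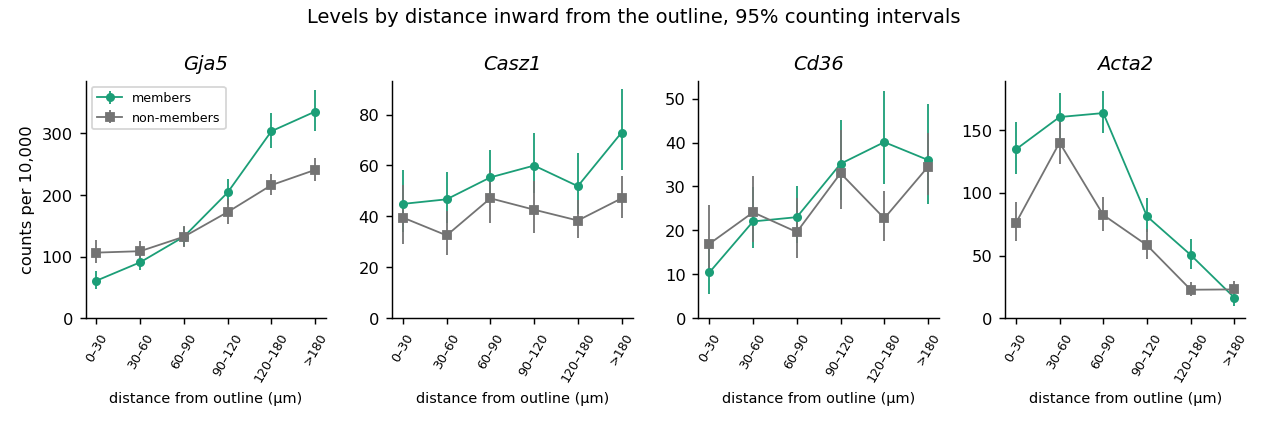
Counts per 10000 of 4 genes by distance inward from the outline (micrometres), for members (circles) and non-members (squares), with 95% counting intervals. Gja5 goes from 60.9 to 335 in members and from 106 to 241 in non-members, and Acta2 goes the other way.

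3 groups of cells were most like the members by rule. The 62 cells that passed every other condition but held at least 2 Npr3 counts lay in the same place, 80.6% of them inside the outline. Their summed endothelial level was 179, or 1.92-fold (1.65 to 2.23) that of members, and their Adgrg6 level was 74.7 against 19.97 counts per 10000, whereas Gja5 did not differ beyond counting error (125 against 117, 1.07-fold, 0.896 to 1.27). Casz1 was lower in them (0.509-fold, 0.320 to 0.771). The 1585 cells with at least 3 Tbx20 counts and no Gata4 were inside the outline to 13.9%, held 1343 Stmn2 counts per 10000 and 181 of Hand2, and held 11.3 of Gja5. Their Casz1 level, 69.95 counts per 10000, was above that of members (40.2) and of the aggregate (53.6). The 857 cells with at least 3 Gata4 counts and no Tbx20 were inside it to 3.97% and held 175 Myh11 counts per 10000, 26.7 of Gata5 and 7.54 of Gja5; their Acta2 level was 71.7 beside 79.1 in members. Both Gja5 levels were below the 12.2 of all other kept cells.

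The same rule picked 638 of 6334 kept cells (10.1%, 9.34 to 10.8%) in E9.5 section 2 and 3 of 830 in section 1, in which Gja5 was at 0 and Casz1 at 1 count. In section 2, 27 of 283 genes (9.54%) were at least 2-fold higher in these cells than in the rest of the section and 90 (31.8%) lower. Acta2 led at 14.3-fold (13.5 to 15.1), followed by Pdlim3, a muscle Z-disc protein (8.22-fold), Gata5 (7.03-fold, 6.66 to 7.41), Casz1 (5.37-fold, 4.92 to 5.85) and Prox1 (5.26-fold, 4.71 to 5.87). Gja5 was 1.73-fold (1.45 to 2.05), on 189 counts, beside 9.59-fold at E15.5. Hand2 was 2.83-fold, Unc5b 3.57-fold and Tmem108 3.15-fold. Of the endothelial genes, Cdh5 was 1.77-fold, Kdr 1.46-fold, Pecam1 1.27-fold, Emcn 0.267-fold and Cldn5 0.198-fold. The stages differ in embryo, section and the cells that make up the rest of the section, so these folds are given side by side and their difference was not tested.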

How the data were processed

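Per the labels' protocols, hybridisation, imaging, segmentation and decoding were run on the Vizgen MERSCOPE platform; the segmentation settings were not given in the sources used here, and the submitters' processing notes name Scanpy and Seurat. The deposited tables hold raw counts per cell of 296 genes and 19 blank codes, with each cell's centre and volume. Blank codes were left out of totals. Depth at E15.5 was a median of 84 counts per kept cell, so shares of cells were compared after thinning to 30 counts. Intervals are exact (conditional Poisson for folds, Clopper-Pearson for shares) and cover counting error only. Genes with fewer than 20 expected counts on either side were not called. The members and the marker lists were chosen with earlier results of these data known, and the outline zones, the far members and the neural-marked and liver-marked cells were set after the data had been seen. Named genes were Casz1, Gja5, the 5 endothelial genes, panel heart factors, the 12 highest and 8 lowest folds over other cells, the 6 highest over nearby cells, and the 6 highest and 4 lowest between members with and without endothelial counts among genes with at least 50 expected counts on each side; other genes were named after their values were seen. Neural-marked cells held at least 20 counts of Stmn2 and Tubb2b. No doublet caller was run; segmented neighbours can share transcripts. The calculation was tested on simulated counts. Python 3.11.15, numpy 2.4.6, scipy 1.17.1, scikit-learn 1.9.0 and shapely 2.1.2 were used.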

Additional observations from a re-analysis of the deposited data

Results flagged for a closer look

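Among the named genes, 5 lay above the rest of their section at 1 stage and below it at the other, with counting intervals on opposite sides of 1, when cells of the same rule were set against other kept cells at E15.5 and in E9.5 section 2. Emcn, the sialomucin of venous and capillary endothelium, was at 1.41-fold at E15.5 and 0.267-fold at E9.5, and Epas1, a hypoxia-inducible factor, at 1.58-fold and 0.811-fold. The opposite order was seen for Dkk2 (0.129-fold and 1.36-fold), Pcdh17 (0.208-fold and 1.86-fold) and Rgs4 (0.483-fold and 1.68-fold). The difference between stages was not tested: it rests on 1 section at E15.5 and 1 at E9.5, since E9.5 section 1 held only 3 cells of the rule.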

How the results depend on the processing

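Of 385 values for the 35 named genes under 11 alternatives, 382 lay on the same side of 1 as reported. The sizes held less well: 269 stayed inside the reported counting interval, 115 moved outside it and 1 turned round. For the main results 48 values stayed the same, 29 moved and 1 turned round. There, numbers of cells or genes counted as moved when they changed by more than 1.5-fold. The exceptions to the side of 1 were Adgrg6, at 0.850-fold with Npr3 at 0 and 0.885-fold per cell volume, and Col4a1, at 0.926-fold per cell volume. Neither gene was called between members and other kept cells. The summed endothelial fold over other kept cells was 1.34 with a pair sum of at least 2, 1.18 with Npr3 at 0, 1.35 with no limit on Npr3, 1.05 per cell volume and 1.62 for the aggregate alone. Over nearby cells it was 1.14 with a pair sum of at least 5 and with Npr3 at 0, 1.31 with no limit on Npr3, 1.56 for the aggregate alone and, turned round, 0.986 per cell volume (0.935 to 1.04). The number of members was 663 with a pair sum of at least 5. The share in the largest aggregate was 62.0% and 38.8% with sums of at least 2 and 5, 33.9% with Npr3 at 0, 16.4% and 78.1% with links of 30 and 100 micrometres. Genes higher in members numbered 14 per cell volume, 46 at 1.5-fold and 11 against nearby cells; genes lower numbered 76 at 1.5-fold and 76 for the aggregate alone. The share of members with an endothelial count was 55.1% unthinned and 39.2% thinned to 60. Split at 90 micrometres, an alternative added after seeing the data like the next, Gja5 was 2.69-fold higher inside in members and 1.84-fold in non-members, and 13 genes were lower in members. Per cell volume these values were 2.62-fold, 1.42-fold and 53 genes, with 6 genes higher. The causes were not tested. Results rest on 1 section and 1 embryo, so differences between embryos are unknown, and the panel has none of the 19 heart muscle structural genes listed. No paired analysis was possible because the comparisons lie within 1 section and E15.5 shares fewer than 2 replicate numbers with E9.5.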
